A study of Mus musculus with 6 samples.

Results

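The 10 genes described here are transcription factors and signals that act downstream of, or together with, the progesterone receptor (PGR) in the stroma and epithelium of the uterus: Hand2, Gata2, Sox17, Ihh, Ptch1, Gli1, Cebpb, Foxo1, Il13ra2 and Msx1. They were chosen by symbol as a fixed list, and all 10 were found among the 24964 gene symbols of the deposited table. RNA had been sequenced from pregnant mouse uterus on gestation day 13, from the tissue around implantation sites, in 6 libraries. Of these, 3 carried the genotype label control and 3 the label myometrial PGR knockout, which names loss of the receptor in the muscle layer. The sources used here do not give strain, age, alleles, the Cre driver or any agent given to both groups. The labels do not say that each library came from its own animal, so each p-value speaks only to the spread among these 6, which may be technical. Pgr itself read 9.72, 8.33 and 12.1 FPKM in control libraries against 11.3, 12.4 and 7.73 FPKM under the deficient label (FPKM, fragments scaled to gene length and library size). Its log2 difference was 0.05 (95% confidence interval from -0.42 to 0.51, limma adjusted p = 0.912), and its sign turned under some settings. It was 0.36 without the third library of both groups (limma adjusted p = 0.0883). Because the level of Pgr does not separate the groups, the mutant group is referred to by its label, as labelled deficient, and every direction below rests on that label.

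In the uterus, progesterone acts through PGR in a relay between layers. In the epithelium, PGR with GATA2 and SOX17 drives Ihh, a secreted hedgehog ligand. The ligand binds PTCH1 on stromal cells, which frees SMO to activate GLI factors, and Ptch1 and Gli1 are themselves classical targets of that signal. In the stroma, PGR drives Hand2, whose product restrains fibroblast growth factors that would keep the epithelium dividing, while C/EBP beta (Cebpb) and FOXO1 take part in decidualization, the change of stromal cells that supports the embryo. IL13RA2 is a decoy receptor for interleukin 13, and MSX1 is a homeobox factor of uterine receptivity. The muscle layer is not the main site of this relay.

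Promoters from RefSeq (GRCm38.p6) were at hand for 8 of the 10 genes, with 9 start sites in all, and the 250 bases before the start were searched. Gli1 and Sox17 had no entry. Shown are the promoters of Foxo1, one of the genes that passed the test, of Hand2, the only one whose levels lay lower in every library labelled deficient, and of Il13ra2, which had the most motif matches. Each is written 5′ to 3′ on its gene's strand, and capitals mark motif matches. Foxo1 is chr3:52268087-52268336 on the plus strand, Hand2 is chr8:57320733-57320982 on the plus strand and Il13ra2 is chrX:147429193-147429442 on the minus strand.
Foxo1: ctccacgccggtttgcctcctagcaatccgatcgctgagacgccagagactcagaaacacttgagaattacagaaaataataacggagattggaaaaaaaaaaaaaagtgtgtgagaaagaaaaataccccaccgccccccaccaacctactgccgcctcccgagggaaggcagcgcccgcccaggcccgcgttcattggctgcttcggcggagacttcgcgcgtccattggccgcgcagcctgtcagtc
Hand2: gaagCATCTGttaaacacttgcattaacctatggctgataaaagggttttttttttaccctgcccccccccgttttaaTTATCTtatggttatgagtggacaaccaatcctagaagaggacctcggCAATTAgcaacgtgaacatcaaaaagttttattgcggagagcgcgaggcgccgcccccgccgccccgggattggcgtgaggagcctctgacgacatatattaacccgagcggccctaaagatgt
Il13ra2: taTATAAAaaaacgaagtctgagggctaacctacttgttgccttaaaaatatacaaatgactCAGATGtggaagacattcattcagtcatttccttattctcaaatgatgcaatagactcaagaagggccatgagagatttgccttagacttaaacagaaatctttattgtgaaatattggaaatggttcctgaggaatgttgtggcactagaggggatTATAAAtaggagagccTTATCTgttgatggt
The search covered 9 motifs on both strands, those of factors on the list or their receptor and the TATA box. Each share that follows is the part of all 32851 promoters of the same length in the table that held the letters at least once. The GLI motif was searched as GACCACCCA, which 0.225% of them held. The half-site shared by steroid receptors such as PGR was searched as TGTTCT, held by 16.1%. For GATA factors the letters were AGATAA, with a share of 9.99%. FOXO factors were represented by GTAAACA, found in 3.17% of promoters. The C/EBP letters, TTGCNNAA, stood in 9.56%. SOX factors were searched by ATTGTT, present in 9.42% of all starts. The homeobox letters used for MSX were TAATTG, with a share of 7.17%. For HAND factors the E-box CATCTG was taken, which 14.4% of promoters contained. The TATA box was searched as TATAAA, held by 12.4%. The Hand2 promoter held 1 GATA match starting 172 bases before the start, 1 MSX match at 124 and 1 HAND match at 246. The Il13ra2 promoter held a GATA match at 15, a HAND match at 188 and TATA box matches at 31 and 248. No match overlapped another, and the other 7 promoters held none of the 9 motifs. These are matches of letters, not sites of binding. The content of G and C was 56% for Foxo1, 49.2% for Hand2 and 36% for Il13ra2, and ranged up to 81.6% (Cebpb) among the genes on the list, against a median of 52.4% over all promoters.

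Foxo1 and Gli1 rose in the libraries labelled deficient, to 1.52 and 1.83 times their control means. Hand2 was the only gene of the 10 that was lower in all 3 of those libraries than in every control, at a mean 1.42 times lower, and it did not pass the test. Gata2, Ptch1 and Sox17 overlapped between the groups, and Cebpb and Msx1 lay above every control without passing. Ihh was near the floor of detection. Il13ra2 was low, at about 8 to 49 reads, and in the libraries labelled deficient it lay above every control. The test was limma on log2(FPKM + 1) over 12500 genes, those whose mean across the 6 libraries reached 1 FPKM, adjusted over those genes, with a threshold of 0.05. Of the 10 genes, 8 entered it, and 2 of the 8 passed, both higher. Over all genes tested, 3.34% passed, 1.34% higher and 1.99% lower. At an unadjusted p under 0.05 there were 5 of the 8, against 21.5% of all genes tested. The groups did not overlap for 5 of the 8, 4 higher and 1 lower, where 29% of all genes tested did not overlap, 20.8% higher and 8.16% lower. The median difference of the 8 was 0.24 on the log2 scale and that of all genes tested was 0.06. Differences are of log2(FPKM + 1), so for genes at a low level they are smaller than the log2 of the fold change. Msx1, which is among the 8, the 5 and the 4, reached the minimum only through the libraries labelled deficient. Over the other 7 genes, 4 had an unadjusted p under 0.05, 4 did not overlap (3 higher, 1 lower) and the median difference was 0.21. Neither call held when any single library was left out, where limma gave Foxo1 and Gli1 adjusted p values between 0.0507 and 0.146. Without the third library of both groups, both passed (0.0359 and 0.0481). Their direction was positive in every fit.

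**Figure D1:**
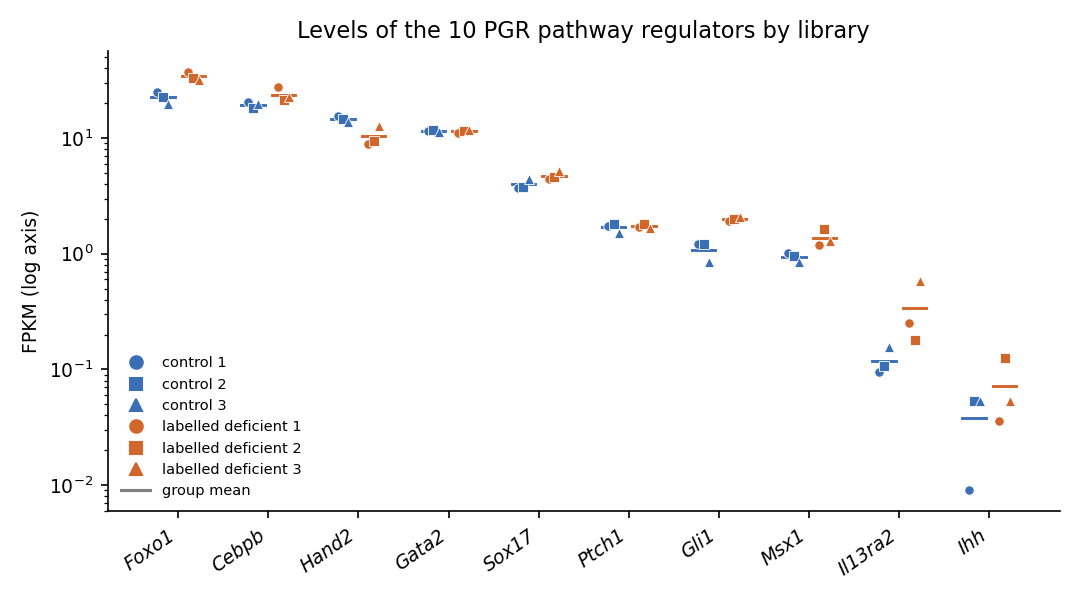
FPKM of the 10 genes in each library, on a log axis, with the controls in blue, the libraries labelled deficient in orange and a bar at each group mean. Foxo1, Cebpb, Gli1, Msx1 and Il13ra2 have all 3 orange points above the blue ones, Hand2 has all 3 below, and Ihh spans 0.009 to 0.125 FPKM.

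**Figure D2:**
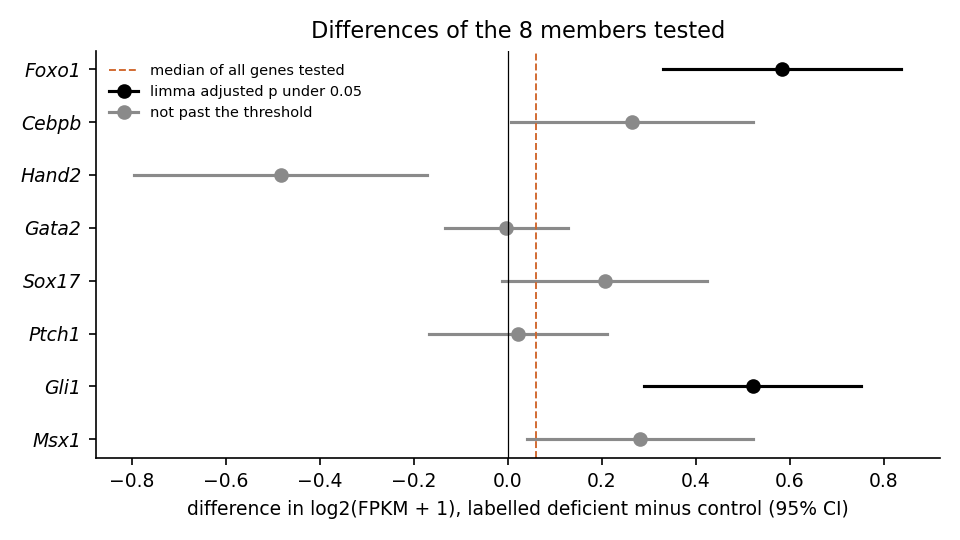
Difference in log2(FPKM + 1), labelled deficient minus control, with its 95% confidence interval from limma, for the 8 genes tested. The intervals of Foxo1 (0.33 to 0.84) and Gli1 (0.29 to 0.75) belong to the genes past the threshold, and those of Gata2 and Ptch1 straddle 0 closely.

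The order of the levels differed between the groups at 2 places. In the controls the means ran Foxo1, Cebpb, Hand2, Gata2, Sox17, Ptch1, Gli1, Msx1, Il13ra2, Ihh. The libraries of neighbours in that order overlapped for Foxo1 and Cebpb and for Gli1 and Msx1, and for no other pair. In the libraries labelled deficient, Gata2 stood above Hand2, with overlapping values, and Gli1 above Ptch1, without overlap. FPKM is scaled to gene length, so levels of different genes can be set side by side, as far as the authors' gene lengths hold.

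The whole-tissue samples differed in their mix of transcripts, and in bulk tissue fewer cells of a type and less RNA per cell cannot be told apart. All 6 smooth muscle markers fell, and their summed level was 7805 to 9599 FPKM in the controls and 3114 to 3693 FPKM in the libraries labelled deficient. Of 7 epithelial markers, 2 rose, Krt19 and Cdh1, with sums of 597.3 to 663.3 and 765.0 to 970.9 FPKM. Leaving out control 1, control 2 or deficient 1 kept 4 of the 6 muscle calls, and no filter on low values kept 2. A fit with the replicate number as a block kept 4. Krt19 and Cdh1 both missed the threshold once control 2, control 3, deficient 1 or else deficient 2 was left out, and with no filter. Cdh1 also missed it when control 1 was left out and with the replicate block. None of 6 stromal markers passed limma, and their median difference was -0.0028. The 4 with an unadjusted p under 0.05 went both ways, since the receptor genes Pdgfra (0.43) and Pdgfrb (0.18) lay above every control and the filament gene Vim (-0.53) and the collagen gene Col1a1 (-0.22) below. The summed stromal level, 2737 to 2900 and 2404 to 2448 FPKM, is mostly that of Col1a1. None of the 4 decidual markers tested passed (2 had an unadjusted p under 0.05), with sums of 109.6 to 376.9 and 6.88 to 43.0 FPKM. Those 2 were Prl8a2 (-4.50) and Dio3 (-2.33), Tdo2 was at -0.15, and Alpl, at 0.51, differed the other way with overlapping groups. Endothelial (6 genes), macrophage (5 genes) and mesothelial (4 genes) markers had 0 calls and 0 genes at an unadjusted p under 0.05, and their sums overlapped. The 6 trophoblast markers summed to at most 2.11 FPKM, with Gcm1 listed at 0 everywhere, and the 5 uterine NK cell markers to at most 3.99 FPKM. Of 5 gland markers, 2 were tested and 0 passed limma or had an unadjusted p under 0.05. Foxa2 and Cxcl15 were under 1 FPKM in every library, and Prss29 was at 207.1 FPKM in deficient 3 against 6.81 to 43.5 FPKM in the others. Of 5 erythroid markers, the 4 globin genes were listed at 0 everywhere. Alas2, the heme synthesis enzyme of red cell precursors, rose from 2.77, 5.98 and 3.69 FPKM to 23.9, 12.0 and 20.1 FPKM (1.93, SE 0.31, limma adjusted p = 0.0295). Its call was lost with no filter, with the replicate block, without the third library of both groups and without any single library except deficient 2 (up to 0.122). The part of these mixes in the results below was not tested. Control 3 and deficient 3 stood apart from their groups, correlating at 0.982 to 0.983 and 0.971 to 0.976 with the others of the same label across the genes tested, against 0.992 and 0.991 for the remaining pairs. The 417 genes that passed split into 168 higher and 249 lower, and into 218 and 211 after rescaling each library to a sum of 1000000, into 123 and 391 by median-of-ratios size factors and into 131 and 336 on quantile-normalized values.

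Ihh, the epithelial ligand (chromosome 1, 74945315 to 74951672, minus strand), was at or near the limit of counting in every library. Its level was 0.009, 0.053 and 0.053 FPKM in control libraries against 0.036, 0.125 and 0.053 FPKM under the deficient label, so the groups overlapped. These values are whole multiples of about 0.00889 FPKM (to rounding of 0.0005 FPKM and 1%), which would be the worth of 1 read. They would then stand for 1, 6 and 6 reads in the controls and 4, 14 and 6 in the others. A floor of 3 reads is 0.0267 FPKM, and control 1 lay under it. Ihh was not tested in the main fit because its mean was under 1 FPKM. The two-sided exact permutation p was 0.6, and no design of 3 against 3 can go below 0.1. The step and the annotated exon length of Ihh imply about 36900000 reads per library, and the same for Il13ra2 gives 36800000. The sources used here do not say whether that is the depth of each library or a common size in the formula. Read numbers are therefore approximate and cover counting error only.

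The upstream factors of Ihh did not pass the test. Gata2, a zinc finger factor that works with PGR (chromosome 6, 88193891 to 88207032, plus strand), had the smallest standard error of the 8 genes tested. It read 11.4, 11.6 and 11.3 FPKM in control libraries against 11.1, 11.5 and 11.7 FPKM under the deficient label. The ranges overlapped. The log2 difference was -0.0037 with a standard error of 0.05, and its 95% confidence interval ran from -0.13 to 0.13 (limma adjusted p = 0.979). Sox17, an HMG-box factor of epithelium and endothelium (chromosome 1, 4490931 to 4497354, minus strand), read 3.68, 3.77 and 4.44 FPKM in control libraries against 4.39, 4.59 and 5.19 FPKM under the deficient label. Control 3 was above deficient 1, and the other controls were below all of the second group. The difference was 0.21 (SE 0.09, interval from -0.01 to 0.42, limma adjusted p = 0.254). Epithelial marker sums did not overlap between the groups and endothelial ones did, as given above, and their part in the level of Sox17 was not tested.

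Downstream of the ligand, the factor Gli1 passed the test and the receptor Ptch1 did not. Ptch1, the hedgehog receptor (chromosome 13, 63508328 to 63573598, minus strand), read 1.72, 1.82 and 1.53 FPKM in control libraries against 1.71, 1.82 and 1.65 FPKM under the deficient label. The groups overlapped almost fully. Its difference was 0.02 (SE 0.08, interval from -0.17 to 0.21, limma adjusted p = 0.897), and its sign turned under median-of-ratios scaling and quantile normalization. Gli1, the GLI factor that is itself induced by the pathway (chromosome 10, 127329882 to 127341974, minus strand), read 1.20, 1.20 and 0.853 FPKM in control libraries against 1.91, 1.98 and 2.06 FPKM under the deficient label. The lowest of the second group was well above the highest control. The means were 1.09 ± 0.20 and 1.99 ± 0.08 FPKM (SD, n = 3 each), and limma put the log2 difference at 0.52 (SE 0.10, adjusted p = 0.0431). With a pseudocount of 0.1 the difference was 0.83 and the adjusted p 0.0532. The ratio of Gli1 to Ptch1 within a library, chosen after the values were seen, was 0.70, 0.66 and 0.56 in the controls and 1.12, 1.09 and 1.25 in the libraries labelled deficient. Gli1 thus exceeded Ptch1 in 0 of 3 controls and in 3 of 3 of the others. By the implied library size, the values of Gli1 would rest on about 157 to 380 reads and those of Ptch1 on about 798 to 951. An antisense gene, Gm47200, overlaps 9584 bases of the Gli1 locus and has no row under that symbol in the table. The sources used here do not say whether strand was kept, so its reads and those of Gli1 may not be told apart. Ptch1 and Sox17 also overlap genes without a row, A930032L01Rik (957 bases, same strand) and Gm37587 (804 bases, other strand). Overlaps given here and below are of whole gene spans with introns, and overlap of exons was not checked. Arhgap9, which overlaps the end of Gli1 by 62 bases on the other strand, was at 3.9 ± 0.4 and 4.0 ± 0.4 FPKM (SD, n = 3 each).

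Of 15 further hedgehog pathway genes, 10 were tested, 2 fell, 0 rose and 8 did not pass, with a median difference of -0.03. Boc, a cell surface co-receptor that binds the ligand, fell from 12.1, 13.6 and 13.0 FPKM to 6.07, 7.69 and 6.80 FPKM, 1.88 times lower. Limma put its log2 difference at -0.83 (SE 0.09, adjusted p = 0.0102), and the call was lost only without control 2 (adjusted p = 0.0546) among the alternatives run. Gli3, the GLI factor that acts mainly as a repressor, fell from 1.93, 1.85 and 1.77 FPKM to 0.860, 1.04 and 0.926 FPKM, 1.97 times lower, with a difference of -0.56 (SE 0.08, limma adjusted p = 0.0198). Over the alternatives the difference of Gli3 ran from -0.91 to -0.53. In both Boc and Gli3 the groups lay far apart. The call for Gli3 was lost with the replicate number as a block and when any of controls 1 and 2 and deficient 1 and 2 was left out, at an adjusted p of at most 0.111. The within-library ratio of Gli1 to Gli3, chosen after the values were seen, was 0.62, 0.65 and 0.48 in the controls and 2.22, 1.91 and 2.23 in the libraries labelled deficient. Gli2, the main activator of the family, was at 2.34 ± 0.08 and 2.92 ± 0.57 FPKM and Disp1, which releases the ligand from its source cell, at 3.82 ± 0.32 and 4.62 ± 0.68 FPKM (SD, n = 3 each), and neither passed. The signal transducer Smo (0.06), the inhibitor Sufu (0.03) and the stromal nuclear receptor Nr2f2 (0.02), a target of the ligand, differed by little on the log2 scale, and none of them passed. Shh was listed at 0 in every library. Dhh, a further hedgehog ligand, read 0.466, 0.385 and 0.186 FPKM in control libraries against 0.416, 0.366 and 0.569 FPKM under the deficient label. Its groups overlapped, and it was under the minimum mean and not tested. Hhip, a decoy for the ligand that is also a pathway target, read 0.253, 0.114 and 0.272 FPKM in control libraries against 0.066, 0.093 and 0.036 FPKM under the deficient label. Hhip was under the minimum mean and not tested, and like Smo, Sufu, Nr2f2, Shh and Dhh it was named after its values were seen. The fall of Boc and Gli3 went with the lower smooth muscle marker sums given above, and the part of muscle content in it was not tested.

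**Figure D3:**
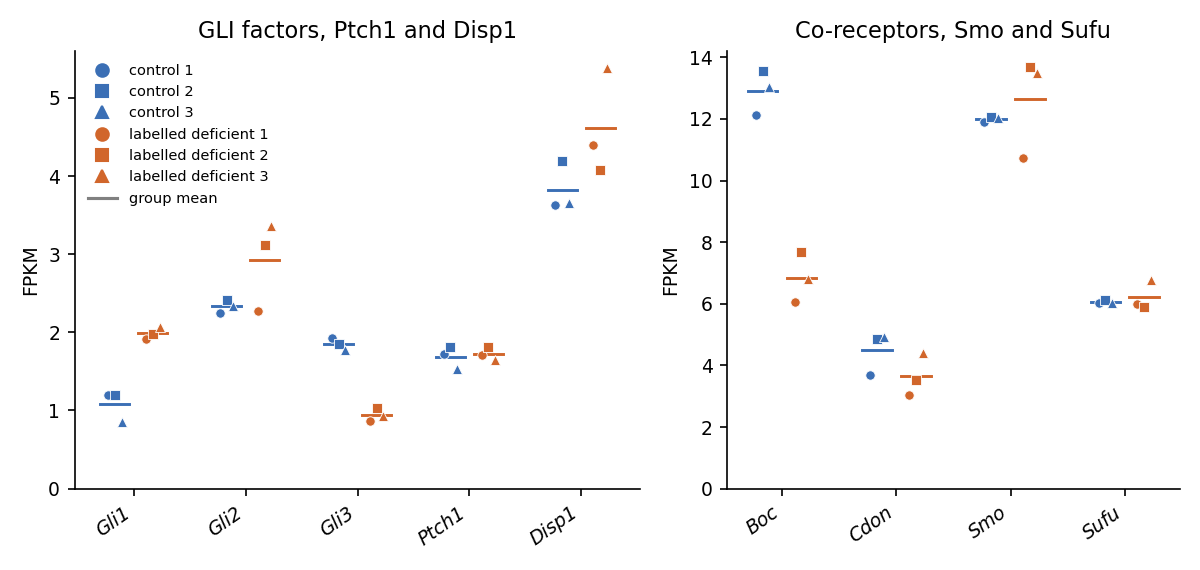
FPKM of hedgehog pathway genes in each library, with controls in blue, libraries labelled deficient in orange and a bar at each group mean. Gli1 is higher and Gli3 and Boc are lower in all 3 libraries labelled deficient, while Ptch1, Smo and Sufu overlap.

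Hand2, the basic helix-loop-helix factor of the stroma (chromosome 8, 57320983 to 57324633, plus strand), read 15.6, 14.7 and 13.8 FPKM in control libraries against 8.89, 9.45 and 12.6 FPKM under the deficient label. Deficient 3 stood close under the controls, and deficient 1 and 2 well below them. The means were 14.7 ± 0.9 and 10.3 ± 2.0 FPKM (SD, n = 3 each), and the log2 difference was -0.48 (SE 0.13, interval from -0.80 to -0.17, limma adjusted p = 0.109). It passed without deficient 3 (-0.62, limma adjusted p = 0.0198), without the third library of both groups (-0.67, 0.0155) and with array weights (-0.62, 0.0134), and over all alternatives the adjusted p lay between 0.0134 and 0.293. The ratio of Hand2 to Gata2 within a library, chosen after the values were seen, was 1.36, 1.27 and 1.22 in the controls and 0.80, 0.82 and 1.08 in the others. The antisense gene Hand2os1 overlaps 3251 bases of the Hand2 locus and has no row under that symbol, so its reads may not be told apart from those of Hand2. The stromal and decidual marker sums were also lower in the libraries labelled deficient, though Pdgfra (0.43), Pdgfrb (0.18) and Alpl (0.51) differed the other way, and the part of these cells in the level of Hand2 was not tested. The genes nearest to Hand2 in pattern over the 6 libraries, by the root mean square difference of centred log2 values, were C1qtnf2 (0.05) and Zc2hc1c (0.06). C1qtnf2, a secreted protein of the C1q and TNF family, read 9.27, 8.91 and 8.68 FPKM in control libraries against 5.38, 5.54 and 6.96 FPKM under the deficient label. For Gata2 the nearest were Taok1 and Katnal1 (0.01 each), whose groups overlapped like those of Gata2.

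Of 17 genes of fibroblast growth factor signalling, which HAND2 is known to restrain, 10 were tested, 1 fell and 0 rose, with a median difference of -0.13. Fgf7, a growth factor made by mesenchyme that acts on epithelium, fell from 5.26, 5.54 and 3.38 FPKM to 1.42, 1.67 and 1.20 FPKM, 3.30 times lower. The difference was -1.22 (SE 0.17, limma adjusted p = 0.0197). The call was lost with no filter and when any of controls 1 and 2 and deficient 1 and 2 was left out, at an adjusted p of at most 0.0954. The receptor gene Fgfr1 (-0.26), the adaptor Frs2 (0.14) and the ligand Fgf1 (0.26) came next by p, and none passed. Named after their values were seen, 3 further ligands that HAND2 is known to repress, Fgf2, Fgf9 and Fgf18, were under the minimum mean and overlapped between the groups. Fgf2 read 0.662, 0.704 and 0.977 FPKM in control libraries against 0.742, 1.41 and 1.09 FPKM under the deficient label. Fgf9 was at 1.241, 0.946 and 0.348 against 0.505, 0.606 and 1.66 FPKM, and Fgf18 stayed between 0.154 and 0.447 FPKM in all 6.

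Foxo1, a forkhead factor held in the cytoplasm by AKT signalling and needed for decidualization (chromosome 3, 52268336 to 52353221, plus strand), was the most abundant of the 10. It read 25.1, 22.6 and 19.8 FPKM in control libraries against 37.4, 33.0 and 32.0 FPKM under the deficient label. All of the second group lay above all controls. The means were 22.5 ± 2.7 and 34.1 ± 2.9 FPKM (SD, n = 3 each), and limma put the log2 difference at 0.58 (SE 0.11, interval from 0.33 to 0.84, adjusted p = 0.0406). The ratio of Foxo1 to Hand2 within a library, chosen after the values were seen, was 1.61, 1.53 and 1.44 in the controls and 4.21, 3.49 and 2.53 in the others, where deficient 3 was lowest. On the same strand Gm38034 overlaps 2069 bases of Foxo1, and the antisense gene Gm20402 overlaps 1001. Neither has a row under its symbol. Whether these stretches lie in exons of Foxo1 was not checked, so their reads may not be told apart from those of Foxo1. Epithelial marker sums were higher in the same libraries, and their part in the level of Foxo1 was not tested.

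Among 20 related genes (other FOXO factors, regulators and known targets), 18 were tested, 1 rose, 1 fell and 16 did not pass, with a median difference of -0.05. Trp53inp1, a stress protein induced by p53, rose from 14.8, 16.2 and 14.1 FPKM to 20.8, 19.7 and 22.1 FPKM (0.45, SE 0.08, limma adjusted p = 0.0332). Cited2, a coregulator of CBP and p300, fell from 24.7, 27.3 and 24.6 FPKM to 17.03, 18.6 and 16.96 FPKM (-0.52, SE 0.07, limma adjusted p = 0.0190). In neither gene did the groups overlap. The call for Trp53inp1 was lost when any single library was left out, with the block and with no filter (adjusted p up to 0.141), and that for Cited2 without control 1, control 2 or deficient 1, with the block and with no filter (up to 0.0860). Klf15, a Kruppel-like factor that steroid hormones induce, was at 2.77 ± 0.06 and 1.67 ± 0.30 FPKM (SD, n = 3 each) with a limma adjusted p of 0.0516, and it passed under median-of-ratios scaling, quantile normalization, array weights and limma without the trend. Pdk4, a kinase that restrains glucose oxidation and a known FOXO target, was at 5.18 ± 0.85 and 3.07 ± 1.02 FPKM (SD, n = 3 each) and did not pass (limma adjusted p = 0.142). Igfbp1, a target of FOXO1 in human decidua named after its values were seen, was at most 0.161 FPKM.

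Cebpb, a leucine zipper factor (chromosome 2, 167688915 to 167690418, plus strand), read 20.5, 18.0 and 19.9 FPKM in control libraries against 27.3, 21.2 and 22.5 FPKM under the deficient label. Deficient 1 was the highest, and deficient 2 lay just above control 1. The difference was 0.26 (SE 0.11, interval from 0.01 to 0.52, limma adjusted p = 0.224), and 0.16 without deficient 1. Its single exon overlaps Tmem189 on the other strand by 908 bases, and Tmem189 was at 44.1 ± 7.6 and 43.1 ± 2.0 FPKM (SD, n = 3 each). Of 14 genes of the C/EBP family and the cytokine signals that act on it, 11 were tested and 0 passed limma, with 1 at an unadjusted p under 0.05 and a median of 0.05. That 1 was Cebpd, the delta member, at 29.9, 25.0 and 18.8 FPKM in the controls and 18.98, 14.999 and 16.9 FPKM in the others (-0.49, limma adjusted p = 0.182). The ratio of Cebpb to Cebpd, chosen after the values were seen, was 0.68, 0.72 and 1.06 in the controls and 1.44, 1.41 and 1.33 in the others. The receptor subunit Il6st (0.21), the factor Stat3 (0.16) and the receptor Il11ra1 (-0.13) followed by p.

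Il13ra2, the decoy receptor (chromosome X, 147383476 to 147429192, minus strand), was low everywhere. Its level was 0.095, 0.107 and 0.155 FPKM in control libraries against 0.250, 0.179 and 0.582 FPKM under the deficient label. The groups did not overlap, and deficient 3 was far above the other 5. With a worth of about 0.0119 FPKM per read, these values would stand for 8, 9 and 13 reads against 21, 15 and 49, and the floor of 3 reads is 0.0357 FPKM. Without the filter on low values, limma gave a difference of 0.25 and an adjusted p of 0.467, and the exact two-sided permutation p was 0.1, the smallest possible. The difference was 0.12 without deficient 3, 0.14 without the third library of both groups, 0.51 after rescaling to a sum of 1000000, and 0.41 and 0.90 with pseudocounts of 0.5 and 0.1. Of 15 genes of interleukin 13 and 4 signalling, 11 were tested and 0 passed limma, with 3 at an unadjusted p under 0.05 and a median of 0.14. Those 3 were Socs1, the feedback inhibitor (2.53 ± 0.18 and 3.33 ± 0.13 FPKM, SD, n = 3 each, limma adjusted p = 0.0848), the kinase gene Jak3 (0.35) and Il13ra1, the signalling receptor chain (0.23). The ligands Il13 and Il4 were at most 0.064 FPKM.

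Msx1, the homeobox factor (chromosome 5, 37820485 to 37824583, minus strand), read 1.02, 0.957 and 0.844 FPKM in control libraries against 1.20, 1.62 and 1.28 FPKM under the deficient label. All 3 of the second group were above the controls, deficient 2 most. The difference was 0.28 (SE 0.10, interval from 0.04 to 0.52, limma adjusted p = 0.183), 0.49 with a pseudocount of 0.1 and 0.43 after rescaling to a sum of 1000000. Its mean reached the minimum of 1 FPKM only through that group, the control mean being 0.941 FPKM, so its entry into the test is not independent of the difference. Its values would rest on about 96 to 185 reads.

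In the wider lists that follow, calls stand beside a share of 3.34% that passed over all genes tested. Of 11 paralogs of the 10 genes, 4 were tested and 0 passed limma, with 1 at an unadjusted p under 0.05 (Il13ra1), and Hand1 and Msx3 were listed at 0. Sox18, the endothelial relative of Sox17, was at 19.3 ± 2.1 and 18.7 ± 2.9 FPKM and Sox7 at 7.97 ± 1.83 and 10.2 ± 4.2 FPKM (SD, n = 3 each). Of 14 epithelial genes regulated by progesterone, 8 were tested and 0 passed limma, with 1 at an unadjusted p under 0.05 (Klf15) and a median of 0.03. Next by p were Muc1, the mucin that progesterone lowers in mouse uterus (24.1 ± 5.2 and 32.4 ± 6.5 FPKM, SD, n = 3 each), Wnt7b (0.35) and the Kruppel-like factor Klf5 (0.34). Of 12 decidual stromal regulators, 10 were tested, 1 fell (Cited2, also on the FOXO list) and 0 rose, with a median of 0.02. Zbtb16, a zinc finger factor induced by progesterone and glucocorticoids, read 10.1, 9.92 and 15.8 FPKM in control libraries against 5.94, 7.08 and 6.13 FPKM under the deficient label (-0.78, limma adjusted p = 0.0764). It passed without control 3, without the third library of both groups and with array weights. Bmp2, the growth factor of decidualization, was at 1.33 ± 0.15 and 1.77 ± 0.27 FPKM, and the chaperone Fkbp5 at 16.8 ± 2.9 and 12.0 ± 3.2 FPKM (SD, n = 3 each). Neither passed.

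**Figure D4:**
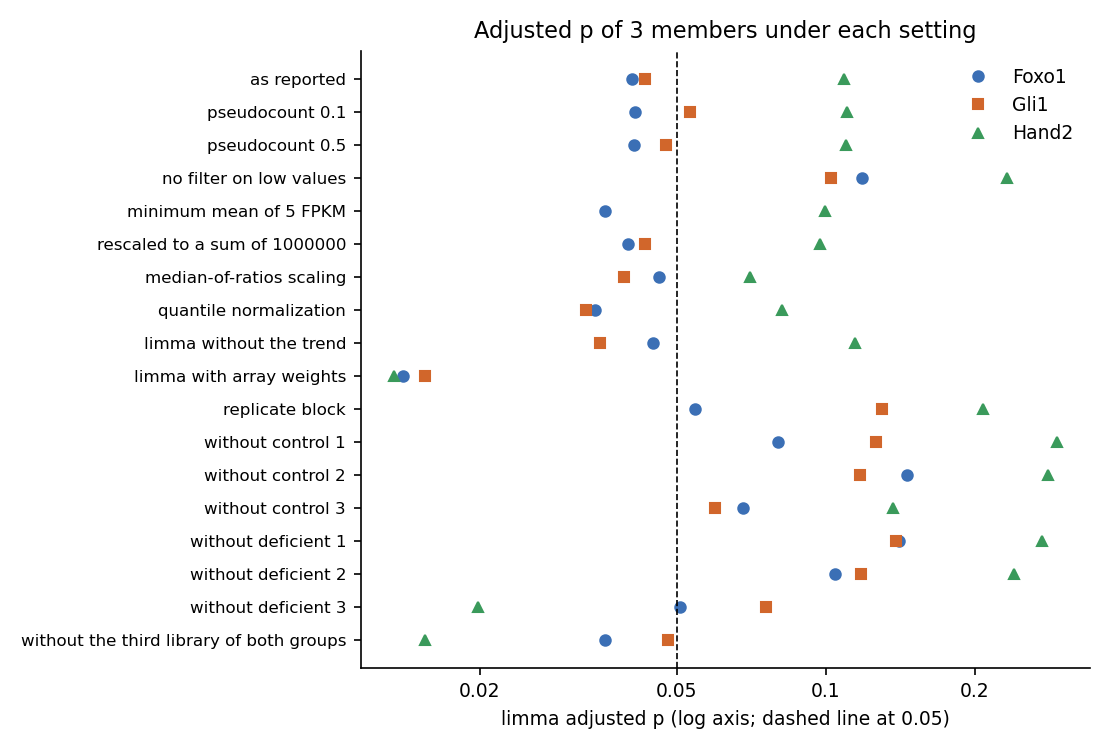
Limma adjusted p of Foxo1, Gli1 and Hand2 under the reported fit and each alternative, on a log axis with a dashed line at 0.05. Foxo1 and Gli1 lie just left of the line in the reported fit and right of it whenever 1 library is left out, while Hand2 lies left of it only without deficient 3, without the third library of both groups and with array weights.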

How the data were processed

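RNA had been isolated with TRIzol and made into libraries by a standard Illumina procedure, per the labels' protocols. The table the authors deposited gives FPKM for 24964 symbols in 6 libraries, and 0 columns were left unmatched to a sample. The genome build mm10, DESeq2 1.24.0, STAR 2.7.0f and cutadapt 2.7 are named per the submitters' processing notes, with no role or order. The sources used here do not give the counting program, gene lengths or strand setting, and no count model was fitted. Here limma 3.58.1 in R 4.3.3 (intensity trend, no covariate) was run on log2(FPKM + 1) for 12500 genes (mean of 1 FPKM or more), with Benjamini-Hochberg adjustment, and its code was tested on simulated data. Low values were also compared by exact permutation. Positions are from GENCODE M21 (GRCm38, the assembly of mm10). The 10 genes, the lists, the alternatives and the naming rule (the 10 genes, Pgr, up to 4 genes of smallest p per list, any other gene of a list past the threshold, and the 2 genes nearest to Hand2 and Gata2 in pattern, Il13ra2 not being tested) were chosen with earlier results of these data known.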

Additional observations from a re-analysis of the deposited data

How the results depend on the processing

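Against 417 genes called over the whole table, 192 were called with no filter, 1770 with array weights, 143 with the replicate number as a block, 1275 without the third library of both groups and between 99 and 525 with 1 library left out. Of the 8 genes of the list tested, 2 were called as reported, 1 with a pseudocount of 0.1, 0 of 10 with no filter, 1 of 4 with a minimum mean of 5 FPKM, 0 with the replicate block, 3 (Hand2, Gli1 and Foxo1) with array weights, the same 3 without the third library of both groups, and between 0 and 1 with 1 library left out, where the 1 was Hand2. Numbers shared by the labels showed no pairing of the libraries: same-numbered deviations correlated at -0.14, 0.08 and -0.13, and not every library correlated best with its own number. Deviations from a group mean of 3 libraries sum to 0, so these values cannot settle whether libraries were paired. The Pgr difference turned to -0.019 (median-of-ratios scaling) and -0.0054 (quantile normalization), was 0.21 with array weights and 0.36 without the third library of both groups, and ranged from -0.078 to 0.23 with 1 library left out. The Gata2 difference turned to 0.041 after rescaling to a sum of 1000000 and ranged from -0.019 to 0.018 with 1 library left out. The Ptch1 difference turned to -0.023 (median-of-ratios scaling), -0.018 (quantile normalization), -0.00049 (array weights) and -0.0027 without the third library of both groups, and ranged from -0.022 to 0.057 with 1 library left out. The cause of these shifts was not tested. Hand2, Sox17, Gli1, Cebpb, Foxo1 and Msx1 kept their direction under every alternative that tested them. Depth limits Ihh and Il13ra2, which would rest on 1 to 14 and 8 to 49 reads.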
